A study of Homo sapiens with 6 samples.

Results

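The genes described here are 10 human genes of ion transport across airway epithelium, which sets how much water mucus holds. Most move chloride or sodium, while ATP12A moves protons and potassium. They were chosen by symbol from the deposited table of 62703 genes, through the Ensembl identifier of each row, and all 10 were found. RNA was sequenced from A549, an established line of human lung adenocarcinoma, in 6 libraries, with all cells maintained in DMEM/F12 medium with fetal bovine serum. The groups were cells in AlgLung hydrogel and cells in S-AlgLung hydrogel, with 3 libraries each. What the S denotes is not given in the labels, and the series title concerns matrix sulfation. The labels name no separate cultures, so p-values here cover only the spread between libraries, which may be technical, and both groups are a single cell line.

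Airway surface liquid is kept at its depth by opposite ion flows. The epithelial sodium channel ENaC takes up sodium at the apical membrane, and water follows into the cell layer. Chloride is loaded from the basolateral side by the cotransporter that SLC12A2 encodes and leaves at the apical side through CFTR, which opens with cAMP, ANO1, which opens with calcium, and SLC26A9. Loss of CFTR function causes cystic fibrosis, in which mucus is poorly hydrated.

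The genes of the ENaC alpha and beta subunits, SCNN1A and SCNN1B, rose in S-AlgLung, 1.81-fold and 1.88-fold. No other member was called in either direction at an adjusted p under 0.05 in edgeR's quasi-likelihood test. The groups overlapped for SCNN1B. Both calls were lost with total-count scaling, at an adjusted p under 0.01, and without any single library other than S-AlgLung replicate 3. That of SCNN1A was also lost with DESeq2-type size factors and limma-voom. If counting ignored strand, LTBR, a gene on the other strand, could account for 24.6% to 42.9% of the SCNN1A reads of a library. SLC12A2 was the most abundant member per length in AlgLung, and it was 0.805-fold in S-AlgLung with overlapping groups. CFTR was higher in all 3 S-AlgLung libraries and ANO1 lower in all 3, both at low levels and neither called. SCNN1G, SLC26A4 and ATP12A had too few reads to test.

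Of the 10 members, 7 passed the low-count filter, and 2 of these 7 were called higher. Among all 18544 tested genes 3.15% were called higher, 1.99% lower and 5.14% in either direction. The members were chosen with earlier results of these data known, so setting them beside these shares is no test of the list. None of the 7 was called lower by edgeR, while 1 (ANO1) had an unadjusted p of 0.00821 in that direction, and DESeq2 and limma-voom also called 0 lower. The 3 S-AlgLung values all lay above the 3 AlgLung values for 3 of the 7 members (10.4% of all tested genes) and all lay below for 1 (8.05% of all tested genes).

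Total counts ran from 22978408 to 26495444 per library. S-AlgLung replicate 3 stood apart from the other libraries. The nuclear RNAs MALAT1 and NEAT1 held 0.0264% of its counts against 0.00398% to 0.00736% elsewhere, and 28413 genes had a read against 25729 to 26007 elsewhere. It was also the S-AlgLung library with the lowest SCNN1A and SCNN1B, so their values are given with and without it. Leaving out their lowest S-AlgLung library raises their fold changes by construction, so those values are no added support. Over all genes, calls without it went from 584 to 891 higher and from 369 to 662 lower. In bulk RNA, fewer cells with a transcript and less of it per cell cannot be told apart.

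**Figure D1:**
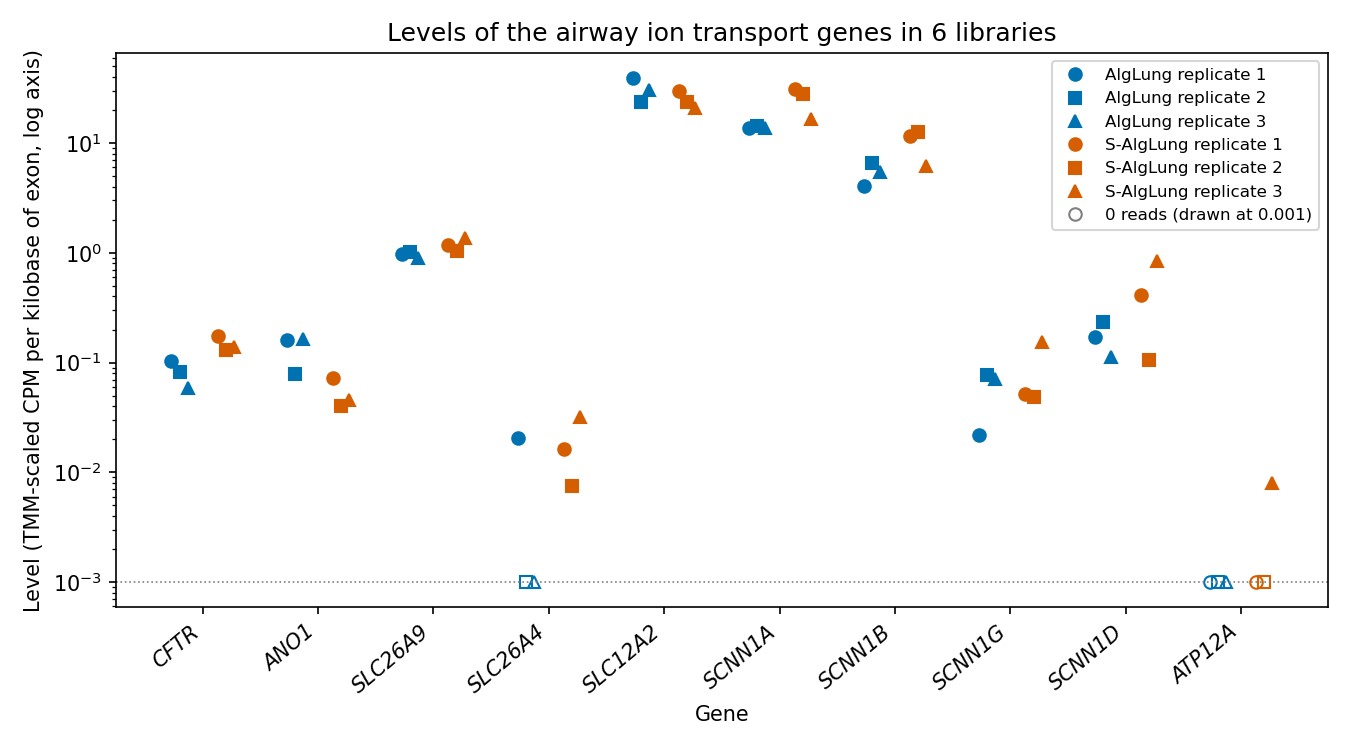
Level of each of the 10 genes in each library, as counts scaled by TMM factors to a common library size (CPM) per kilobase of exon on a log axis. Blue is AlgLung and orange S-AlgLung, the marker shape gives the replicate, and open markers are libraries with 0 reads. SLC12A2, SCNN1A and SCNN1B sit far above the other members in every library.

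SCNN1A encodes the alpha subunit of ENaC, which is needed for the channel to reach the surface in quantity (ENSG00000111319, chromosome 12, 6346843 to 6377730, GRCh38, minus strand). Its level was 81.1, 84.5 and 80.9 CPM in AlgLung replicates 1, 2 and 3. In S-AlgLung it was 183, 166 and 97.8 CPM. The AlgLung values lay within a narrow band, the first 2 S-AlgLung libraries were about level with each other, and the third was lower but still above every AlgLung library. The means were 82.2 ± 2.05 and 149 ± 45.2 CPM (SD, n = 3), and the log2 fold change by edgeR was 0.86 (SE 0.25, adjusted p = 0.0393). Without S-AlgLung replicate 3 the log2 fold change was 1.06 (adjusted p = 3.39e-05).

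SCNN1B encodes the beta subunit (ENSG00000168447, chromosome 16, 23278231 to 23381294, plus strand). It stood at 15.7, 25.7 and 21.2 CPM in AlgLung and at 44.9, 48.7 and 24.2 CPM in S-AlgLung. S-AlgLung replicate 3 fell inside the AlgLung range, so the groups overlapped, while the other 2 S-AlgLung libraries were well above it. The means were 20.9 ± 5.03 and 39.2 ± 13.2 CPM (SD, n = 3), and the log2 fold change was 0.91 (SE 0.25, edgeR adjusted p = 0.0254). It reached 1.14 once S-AlgLung replicate 3 was left out (adjusted p = 2.84e-06).

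Both genes had a positive log2 fold change under every setting tried. Leaving aside the removal of LTBR reads described below, it ran from 0.68 to 1.06 for SCNN1A and from 0.70 to 1.14 for SCNN1B. Both calls were lost with total-count scaling (edgeR adjusted p = 0.0807 and 0.0857) and without any single library other than S-AlgLung replicate 3, where the adjusted p ran from 0.105 to 0.292 for SCNN1A and from 0.0690 to 0.291 for SCNN1B; that of SCNN1A was also lost with DESeq2-type size factors (0.0587) and limma-voom (0.0592).

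**Figure D2:**
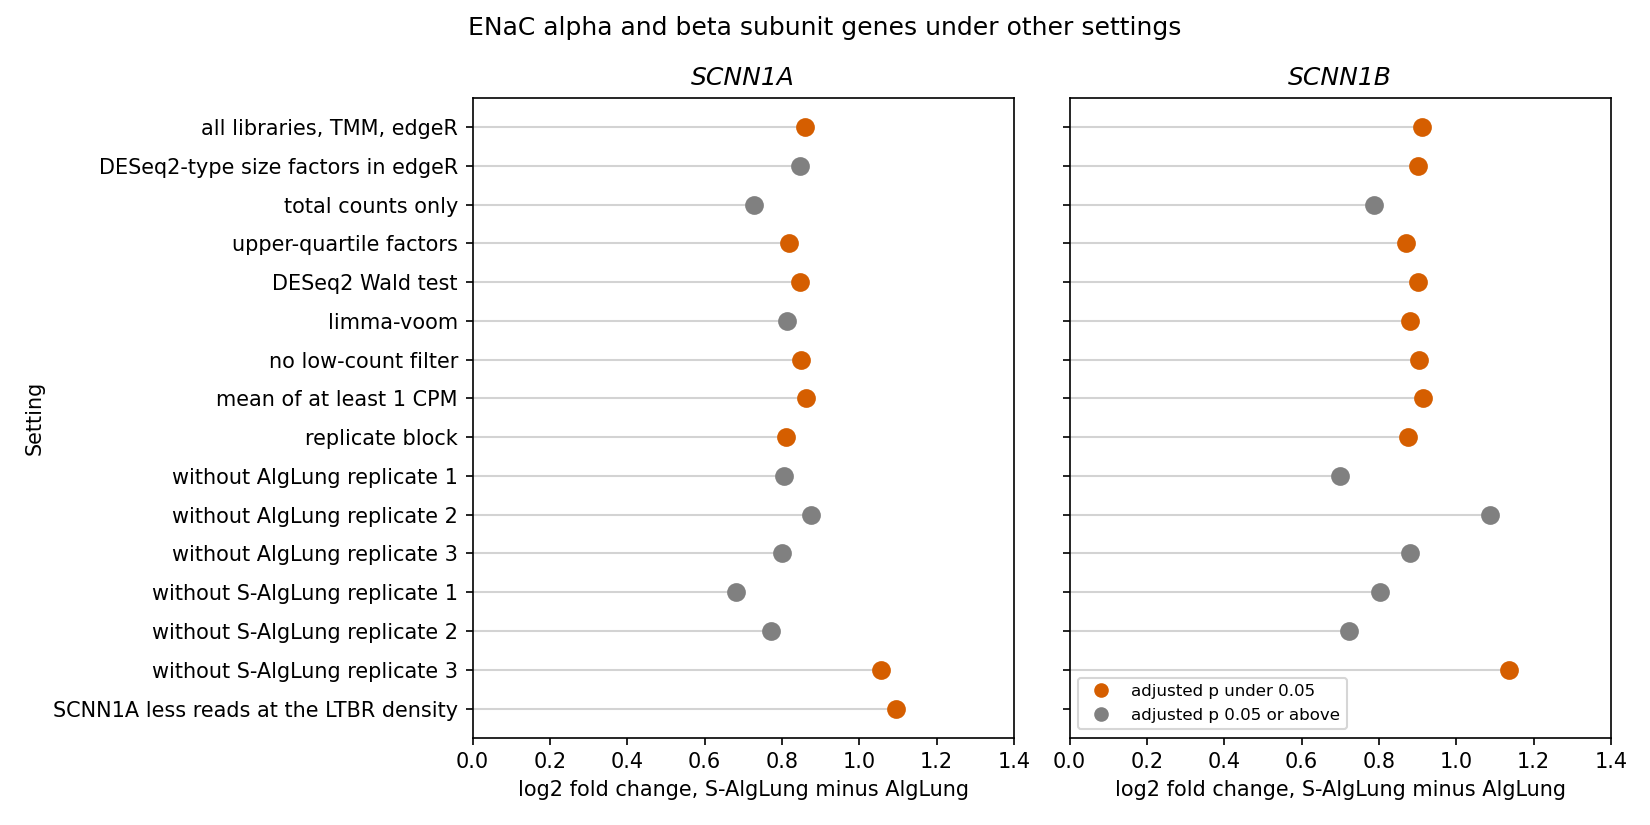
Log2 fold change of SCNN1A (left) and SCNN1B (right) between S-AlgLung and AlgLung under each setting, with orange points for an edgeR, DESeq2 or limma adjusted p under 0.05 and grey points for the rest. All points lie above 0, and the points without S-AlgLung replicate 3 stand at 1.06 and 1.14.

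SCNN1A shares 422 exon bases with LTBR, a gene on the opposite strand with 467% of its counts, and no source used here states whether counting used strand. LTBR itself was at a log2 fold change of 0.39 (edgeR adjusted p = 0.557). At the mean read density of LTBR, the shared bases would hold 24.6% to 42.9% of the SCNN1A reads of a library. With those reads taken away, SCNN1A had a log2 fold change of 1.10 (edgeR adjusted p = 0.00673). Because LTBR changed less than SCNN1A, this removal raises the fold change by construction and cannot test the call. It also assumes even coverage of LTBR and counting without strand. SCNN1B shared no exon bases with another gene of the table.

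The promoter of SCNN1B is shown because it is the called member with an entry in the promoter table from RefSeq, beside that of SLC12A2, the most abundant member in AlgLung, whose call differs. The 250 bases before the RefSeq start are given 5′ to 3′ on the gene's strand in GRCh38.p14, at chr16:23302052-23302301 and chr5:128083516-128083765, with GC boxes (GGGCGG on either strand) in capitals.
SCNN1B: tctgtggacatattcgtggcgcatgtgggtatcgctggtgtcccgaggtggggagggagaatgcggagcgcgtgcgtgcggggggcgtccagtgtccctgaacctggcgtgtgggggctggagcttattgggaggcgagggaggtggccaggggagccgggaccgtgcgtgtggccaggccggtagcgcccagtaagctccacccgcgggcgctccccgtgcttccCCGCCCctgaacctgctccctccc
SLC12A2: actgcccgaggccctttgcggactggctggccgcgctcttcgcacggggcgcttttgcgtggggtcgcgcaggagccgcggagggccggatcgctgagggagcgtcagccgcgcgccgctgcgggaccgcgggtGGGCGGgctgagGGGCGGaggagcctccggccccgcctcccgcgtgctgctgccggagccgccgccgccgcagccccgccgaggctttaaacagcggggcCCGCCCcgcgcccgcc

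The SCNN1B window had 1 GC box and the SLC12A2 window had 3, and 42.6% of 34788 promoter windows of this length held at least 1. The share of G and C was 70.0% in SCNN1B and 79.6% in SLC12A2, against a median of 58.0% over all windows. Neither window held the AP-1 motif TGANTCA (6.59% of windows), the forkhead motif TGTTTAC (2.98%), the E-box CACGTG (6.31%) or the TATA box TATAAA (10.8%), searched on both strands; matches on opposite strands that overlap were counted separately. Of the 10 members, 7 had an entry. The RefSeq start of SCNN1B lies inside the span the deposited table gives for the gene, so other starts are not covered by the window.

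SCNN1G, the gamma subunit that completes the usual channel, lies 61.3 kb before SCNN1B on the same strand (ENSG00000166828, chromosome 16, 23182745 to 23216883). It had 2, 6 and 6 reads in AlgLung and 4, 4 and 15 in S-AlgLung, or 0.198 ± 0.106 and 0.294 ± 0.207 CPM (SD, n = 3). The groups overlapped, and these counts were too low for the filter. With no low-count filter the edgeR log2 fold change was 0.59 (SE 0.72, adjusted p = 0.744). A gene next to a called subunit was thus close to the detection limit in both hydrogels.

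SCNN1D encodes the delta subunit, which can take the place of alpha in human ENaC (ENSG00000162572, chromosome 1, 1280436 to 1292029). It had 18, 21 and 11 reads in AlgLung and 37, 10 and 96 in S-AlgLung. The corresponding levels were 0.690, 0.944 and 0.455 CPM and then 1.68, 0.422 and 3.41 CPM, so the S-AlgLung libraries spanned both the lowest and the highest value. The log2 fold change was 1.42 (SE 0.49, 95% interval 0.40 to 2.43, edgeR adjusted p = 0.111). Leaving out S-AlgLung replicate 3 gave 0.54 (adjusted p = 0.530), and leaving out S-AlgLung replicate 2 gave 1.88 and a call (adjusted p = 0.00102). It was also called with no low-count filter, at 1.39 (adjusted p = 0.0111). The highest value came from the library with the raised MALAT1 and NEAT1 share, whose part in it was not tested.

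SLC12A2, the sodium-potassium-chloride cotransporter NKCC1 that loads chloride into the cell (ENSG00000064651, chromosome 5, 128083766 to 128189677), had 416, 251 and 322 CPM in AlgLung. In S-AlgLung it had 321, 253 and 222 CPM. The ranges overlapped, with AlgLung replicate 1 the highest and S-AlgLung replicate 3 the lowest. The means were 329.6 ± 82.4 and 265 ± 50.6 CPM (SD, n = 3), and the log2 fold change was -0.31 (SE 0.26, 95% interval -0.85 to 0.22, edgeR adjusted p = 0.670). The interval therefore spans a fall to 0.557-fold and a rise to 1.16-fold.

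CFTR, the cAMP-gated anion channel (ENSG00000001626, chromosome 7, 117287120 to 117715971), had 45, 31 and 24 reads in AlgLung and 65, 52 and 66 in S-AlgLung. Its levels were 1.73, 1.39 and 0.993 CPM against 2.95, 2.20 and 2.35 CPM. All S-AlgLung libraries were above all AlgLung libraries. The log2 fold change was 0.86 (SE 0.33, 95% interval 0.18 to 1.54), close in size to that of SCNN1A but with a wider error, and it missed the threshold (edgeR adjusted p = 0.176). It was between 0.62 and 1.01 over the other settings and called in none of them. CTTNBP2, on the other strand, shares 51 exon bases with CFTR and had 26.5% of its counts.

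ANO1, the calcium-activated chloride channel also known as TMEM16A (ENSG00000131620, chromosome 11, 69985907 to 70189530), had 26, 11 and 25 reads in AlgLung and 10, 6 and 8 in S-AlgLung. These were 0.997, 0.495 and 1.04 CPM against 0.453, 0.253 and 0.284 CPM. All S-AlgLung values lay below all AlgLung values, the closest being AlgLung replicate 2 and S-AlgLung replicate 1. The log2 fold change was -1.36 (SE 0.48, 95% interval -2.34 to -0.38, edgeR adjusted p = 0.115). It ran from -1.63 to -1.21 over the other settings and was called in none. ANO1-AS1, on the other strand, shares 646 exon bases with it and had 25.6% of its counts.

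SLC26A9, a chloride channel and transporter that is active without a stimulus (ENSG00000174502, chromosome 1, 205913048 to 205943460), had 5.44, 5.76 and 5.05 CPM in AlgLung and 6.57, 5.87 and 7.64 CPM in S-AlgLung. The groups did not overlap, but AlgLung replicate 2 and S-AlgLung replicate 2 were nearly equal. The log2 fold change was 0.31 (SE 0.24, 95% interval -0.19 to 0.80, edgeR adjusted p = 0.646). SLC26A4, or pendrin, which exchanges chloride for bicarbonate (ENSG00000091137, chromosome 7, 107660828 to 107717809), had 3, 0 and 0 reads in AlgLung and 2, 1 and 5 in S-AlgLung. Its mean was 0.0383 CPM in AlgLung and 0.104 CPM in S-AlgLung, both under the level of 3 reads in a library (0.107 to 0.136 CPM).

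ATP12A, the nongastric proton-potassium pump that acidifies airway liquid (ENSG00000075673, chromosome 13, 24680408 to 24712472), had 1 read in all, in S-AlgLung replicate 3. A count of 0 allows up to 3 reads, or 0.115 to 0.135 CPM in an AlgLung library, for counting error only. No difference between the hydrogels was detectable at this depth for ATP12A or SLC26A4.

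**Figure D3:**
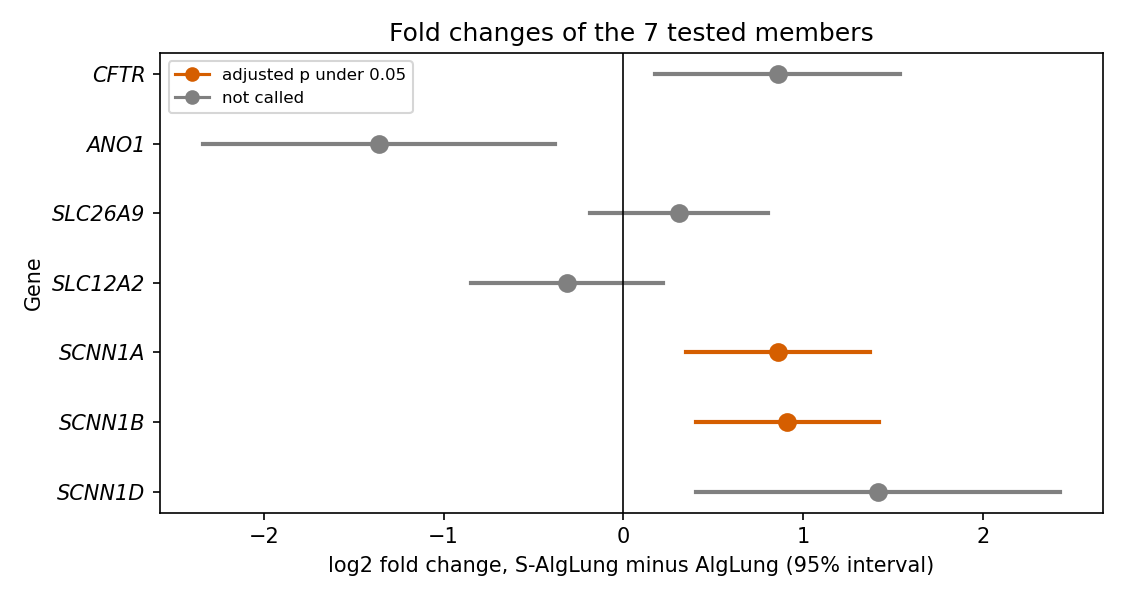
Log2 fold change of each tested member with its 95% interval, which is not adjusted for the number of genes tested. The orange points, SCNN1A at 0.86 and SCNN1B at 0.91, passed the threshold after adjustment, and the intervals of SLC26A9 and SLC12A2 include 0.

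Levels were set beside each other only per length, as mean CPM per kilobase of exon. In AlgLung the order was SLC12A2 (30.9 ± 7.74), SCNN1A (14.0 ± 0.348), SCNN1B (5.38 ± 1.30), SLC26A9 (0.962 ± 0.0628), SCNN1D (0.173 ± 0.0608), ANO1 (0.134 ± 0.0481), CFTR (0.0815 ± 0.0218) and SCNN1G (0.0570 ± 0.0304), followed by SLC26A4 and ATP12A. SCNN1D and ANO1, ANO1 and CFTR, and CFTR and SCNN1G overlapped over libraries, whereas no neighbours above SCNN1D in the order did. In S-AlgLung SCNN1A (25.4 ± 7.70) and SLC12A2 (24.9 ± 4.75) overlapped, and SCNN1B followed at 10.1 ± 3.40. Below them came SLC26A9 (1.19 ± 0.158), SCNN1D (0.456 ± 0.373), CFTR (0.148 ± 0.0236), SCNN1G (0.0847 ± 0.0595) and ANO1 (0.0527 ± 0.0172). SCNN1D and CFTR, CFTR and SCNN1G, and SCNN1G and ANO1 overlapped over libraries, so the order of these neighbours does not hold. CFTR lay above ANO1 in every S-AlgLung library, while in AlgLung the pair overlapped. Without the reads that LTBR could account for, SCNN1A would stand at 8.54 ± 0.273 in AlgLung and 18.25 ± 6.43 in S-AlgLung. The exon length of CFTR in the table, 16821 bases, covers all its annotated transcripts, so its level per kilobase is a low estimate if cells use a shorter one.

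Ratios within a library do not depend on how libraries are scaled, and 3 were computed per exon base after the values had been seen. SCNN1A per SCNN1B was 3.42, 2.17 and 2.52 in AlgLung and 2.699, 2.25 and 2.67 in S-AlgLung, so the balance of the alpha and beta transcripts overlapped between the hydrogels (difference of log2 means -0.07, exact permutation test, 2-sided p = 0.9). SCNN1A per SLC12A2 was 0.354, 0.610 and 0.456 in AlgLung and 1.04, 1.19 and 0.799 in S-AlgLung. SCNN1B per SLC12A2 was 0.104, 0.281 and 0.181 in AlgLung and 0.384, 0.529 and 0.299 in S-AlgLung. Both ratios of a sodium channel subunit to the chloride loader were higher in all 3 S-AlgLung libraries, by 1.11 and 1.18 on the log2 scale. Each gave the smallest exact permutation p that 3 against 3 allows, 0.1, or 0.15 after Benjamini-Hochberg adjustment over the 3 ratios. A ratio shows unequal change and not which of its genes moved. With the possible LTBR reads taken from SCNN1A, its ratio to SLC12A2 ran from 0.223 to 0.348 for AlgLung libraries and from 0.521 to 0.897 for S-AlgLung libraries, and its ratio to SCNN1B still overlapped.

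**Figure D4:**
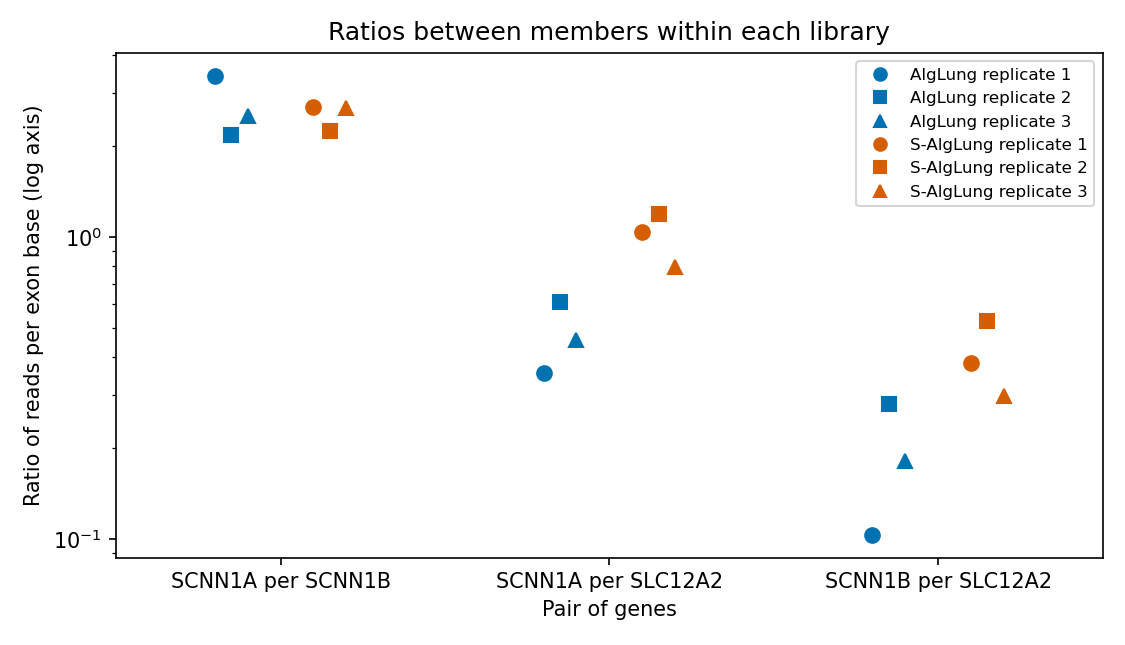
Ratio of reads per exon base between pairs of members in each library, on a log axis, with AlgLung in blue and S-AlgLung in orange. The SCNN1A to SCNN1B ratio overlaps between hydrogels, and both ratios to SLC12A2 are higher in each S-AlgLung library than in any AlgLung library.

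Around these transporters, 112 further genes in 9 lists were followed (pumps, potassium channels, controllers of ENaC and CFTR, receptors, other anion routes, acid and bicarbonate transport, water channels and transcription factors). Of the 95 that could be tested, 6 were called higher (6.32%) and 3 lower (3.16%). The shares over all tested genes, given above, were 3.15% and 1.99%. These lists, too, were chosen with earlier results of these data known. Of these 95 genes, 28 overlap another gene with at least 25% of their counts. The largest group of calls was among controllers of ENaC, where 3 of 14 tested genes rose, none fell, and the median log2 fold change was -0.03 against 0.03 over all tested genes.

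BPIFA1 encodes a secreted airway protein that lowers ENaC at the cell surface. It had 127.8, 263 and 207 CPM in AlgLung and 574, 678 and 244 CPM in S-AlgLung, a log2 fold change of 1.33 (SE 0.32, edgeR adjusted p = 0.00923). Like SCNN1B, it was lowest in replicate 3 among the S-AlgLung libraries, inside the AlgLung range. SPINT1, an inhibitor of the membrane proteases that can cleave and activate ENaC, had 5.94, 6.66 and 4.97 CPM in AlgLung and 14.2, 11.9 and 9.35 CPM in S-AlgLung with no overlap (log2 fold change 1.01, SE 0.24, edgeR adjusted p = 0.00850). Both calls were lost in some of the fits that leave out a library and that of SPINT1 also with total counts, with adjusted p of 0.0520 to 0.169 for BPIFA1 and 0.0539 to 0.134 for SPINT1.

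WNK4, a kinase that regulates sodium and chloride transporters, had 2.91, 2.29 and 2.28 CPM in AlgLung and 6.62, 6.38 and 6.25 CPM in S-AlgLung (log2 fold change 1.36, SE 0.26, edgeR adjusted p = 0.00120). It shares 816 exon bases with COA3, a gene of the opposite strand whose counts were 12.8 times as many, so its reads cannot be assigned with certainty. NEDD4L, the ubiquitin ligase that removes ENaC from the membrane, was at 22.3 ± 3.48 and 21.5 ± 0.0382 CPM (SD, n = 3), and SGK1, the kinase that restrains NEDD4L, at 8.15 ± 0.467 and 8.09 ± 3.66 CPM. Neither was called. The channel-activating protease gene PRSS8 had 9 reads in all libraries and was not tested; NEDD4L, SGK1 and PRSS8 were named for their roles after their values had been seen.

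Of 7 tested sodium-potassium pump genes, 1 was called, higher, against 3.15% of all tested genes. FXYD2, a regulatory subunit of that pump, had 42.5, 45.4 and 31.3 CPM in AlgLung and 140.8, 146 and 53.3 CPM in S-AlgLung (log2 fold change 1.51, SE 0.29, edgeR adjusted p = 0.000981). The readthrough gene FXYD6-FXYD2 on the same strand had 98.6% of its counts, and a gene without a symbol on the other strand had 67.3%, so these reads cannot be given to 1 gene. The list median was 0.55 on the log2 scale, and the other 6 tested pump genes were not called.

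Of 9 tested potassium channel genes, 1 rose and 1 fell, against 3.15% and 1.99% of all tested genes. KCNMA1, the pore of the calcium-activated BK channel, fell from 3.95, 1.39 and 2.53 CPM in AlgLung to 0.499, 0.633 and 0.284 CPM in S-AlgLung. The groups did not overlap, and the log2 fold change was -2.49 (SE 0.43, edgeR adjusted p = 0.000285). It was called in every setting tried, between -2.79 and -2.11. FXYD2 and WNK4 were also called in every setting, with the limits of overlapping genes given above. KCNK6, a potassium leak channel, rose from 27.0, 28.2 and 24.96 CPM to 40.7, 39.7 and 52.8 CPM (log2 fold change 0.73, SE 0.21, edgeR adjusted p = 0.0376). That call was lost with total counts (adjusted p = 0.180), with no low-count filter (0.0535) and in 5 of the 6 fits without a library (0.0640 to 0.407).

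Among 16 genes of CFTR control, 1 fell, against 1.99% of all tested genes. SLC6A14, an amino acid transporter known as a modifier of cystic fibrosis, had 2.42, 1.57 and 1.61 CPM in AlgLung and 0.408, 0.760 and 0.924 CPM in S-AlgLung (log2 fold change -1.40, SE 0.39, edgeR adjusted p = 0.0309). Of 15 tested genes of receptors and cAMP signalling, 1 rose and 1 fell, against 3.15% and 1.99% of all tested genes. PDE4D, which degrades cAMP, fell from 88.7, 54.8 and 79.6 CPM to 44.0, 32.6 and 48.7 CPM (log2 fold change -0.83, SE 0.24, edgeR adjusted p = 0.0344). ADORA2B, an adenosine receptor that raises cAMP, rose from 6.59, 9.35 and 8.53 CPM to 10.6, 12.8 and 21.3 CPM (log2 fold change 0.87, SE 0.25, edgeR adjusted p = 0.0385). ADORA2B was highest in S-AlgLung replicate 3, without which it was at 0.49 (adjusted p = 0.175). The SLC6A14 call was lost with total counts (0.0536) and on leaving out S-AlgLung replicate 1 or either of AlgLung replicates 1 and 2 (0.0770 to 0.180), and that of PDE4D on leaving out either of AlgLung replicates 1 and 3 or of S-AlgLung replicates 1 and 2 (0.0923 to 0.176). The ADORA2B call was also lost with DESeq2-type size factors in edgeR and in DESeq2 (0.0518 in both), with limma-voom (0.0742), with total counts (0.181) and without any AlgLung library (0.107 to 0.298).

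None of the 34 tested genes of the remaining 4 lists was called by edgeR without a block, while 11 had an unadjusted p under 0.05 (14.9% of all tested genes did). DESeq2 called 1 (SLC12A7), limma-voom 0, and edgeR with the replicate block 2 (SLC12A7 and ANO9). In other chloride routes, SLC12A7, a potassium-chloride cotransporter, was at 81.9 ± 13.3 and 138 ± 24.3 CPM (SD, n = 3; edgeR adjusted p = 0.0667), and ANO9 at 2.92 ± 0.747 and 5.02 ± 0.216 CPM (edgeR adjusted p = 0.110). Without S-AlgLung replicate 3, SLC12A7 was called higher at a log2 fold change of 0.85 (adjusted p = 0.00172). The sodium-proton exchanger genes SLC9A2 and SLC9A3 were at log2 fold changes of -0.56 and 0.55 (edgeR adjusted p = 0.232 and 0.262), SLC9A3 sharing exons with EXOC3, which had 5.45 times its counts. AQP3, a water and glycerol channel, was at 986 ± 234 and 1262 ± 326 CPM, and AQP1 near 1 CPM. AQP1 shares 910 exon bases with a gene without a symbol on the same strand that had 179.7% of its counts. The epithelial transcription factor genes EHF and TFCP2L1 were at -0.59 and -0.76 (edgeR adjusted p = 0.187 and 0.194), and TFCP2L1 was called lower without S-AlgLung replicate 3, at -1.25 (adjusted p = 0.00125).

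**Figure D5:**
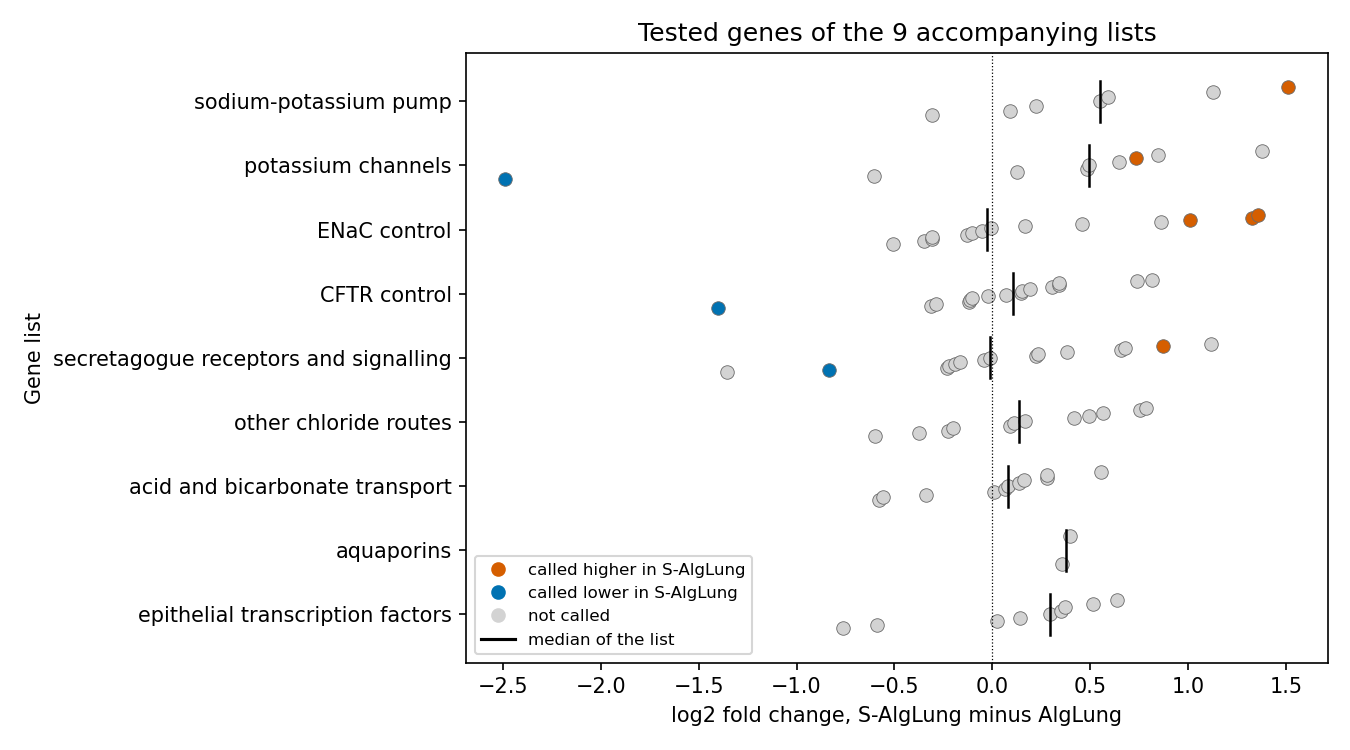
Log2 fold change between S-AlgLung and AlgLung of each tested gene in the 9 accompanying lists, with called genes coloured and a bar at each list's median. The lowest point is KCNMA1 at -2.49, and the 3 called points among controllers of ENaC lie between 1.01 and 1.36.

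Markers were read for the line and for other airway cells. The 10 genes fixed as markers of A549 were all tested and none was called by edgeR (1 at an unadjusted p under 0.05; no other tool was summarised for markers), with KRT8 at 7352 ± 1078 and 5125 ± 2377 CPM and AKR1B10 at 4835 ± 558 and 4788 ± 777 CPM (SD, n = 3). EPCAM among them was low, at 1.95 ± 0.406 and 3.83 ± 1.37 CPM. CDKN2A, deleted in this line, had 1 read in all. Of 10 genes that mark ionocytes, the rare airway cells rich in CFTR, 6 had 0 reads, among them the defining factors FOXI1 and ASCL3, and the summed level was 0.153 to 0.786 CPM in AlgLung and 0.711 to 1.23 CPM in S-AlgLung. Of 6 goblet cell markers, 5 were tested and 2 rose, against 3.15% of all tested genes, and CLCA1 was at 0. The mucin gene MUC5B had 6392, 5375 and 3719 CPM in AlgLung and 20400, 12210 and 6113 CPM in S-AlgLung (edgeR adjusted p = 0.0254), and FOXA3 had 21.5, 27.6 and 22.6 CPM and then 57.3, 49.3 and 23.2 CPM (adjusted p = 0.0460). In both, S-AlgLung replicate 3 lay inside the AlgLung range. The summed level of the goblet cell markers was 8587 to 15670 CPM in AlgLung and 12050 to 36590 CPM in S-AlgLung, and its part in the rise of SCNN1A and SCNN1B was not tested. Markers of club, ciliated, basal, alveolar type 2, fibroblast, leukocyte and endothelial cells numbered 34, of which 15 were tested. Against 3.15% and 1.99% of all tested genes, 2 of these 15 rose and 1 fell. These were TPPP3 of ciliated cells (174.5 to 348 CPM, groups overlapping), CD14 of leukocytes (32.8 to 59.1 CPM) and TP63 of basal cells (25.6 to 13.98 CPM), as group means. SCGB1A1, which defines club cells, and SFTPA1, of alveolar type 2 cells, had 0 reads.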

How the data were processed

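STAR 2.7.3a, featureCounts and the GRCh38 build are named in the submitters' processing notes. No source used here states the annotation or whether counting used strand. The deposited values are raw read counts per gene for 6 libraries. The 2 columns of AlgLung replicate 1 were identical and counted as 1 sample. BEST1 had 196039 reads and shares 1267 exon bases with FTH1 (261126 reads) on the other strand, so overlapping genes are uncertain. Of 62703 identifiers, 62625 matched the gene name table, and 40867 genes had a symbol.

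Genes were kept with filterByExpr (minimum count 10), scaled by TMM, and compared by the quasi-likelihood test of edgeR 4.0.16 in R 4.3.3 over all 6 libraries without a block. Benjamini-Hochberg adjustment ran over 18544 genes, and a positive log2 fold change means higher in S-AlgLung. Their SE is the size of the log2 fold change over the square root of F, and 95% intervals use the test's degrees of freedom. The script was tested on simulated data. Alternatives used other scaling factors, DESeq2 1.42.0, limma 3.58.1, other filters, a block, fewer libraries and an adjusted p under 0.01; the removal of LTBR reads was added after seeing the data.

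The members and lists were chosen with earlier results of these data known. All members are named, with up to 4 called genes of each further list, or the 2 with the smallest p where none was called. For each called member the 3 genes with the most similar profile are named as well. The 3 ratios were chosen after their values had been seen. Counts of 3 reads set the detection limit per library.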

Additional observations from a re-analysis of the deposited data

How the results depend on the processing

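Under all settings tried, each of the 7 tested members kept its direction. The number of members called higher, 2 with all libraries, was 1 with DESeq2-type size factors or limma-voom, 0 with total counts and 0 at an adjusted p under 0.01, and 0 to 2 with a library left out; it was 3 with no low-count filter. With the replicate block it was 2, and SCNN1A and SCNN1B had log2 fold changes of 0.81 and 0.88. Over all genes, 333 were called higher with total counts and 323 at an adjusted p under 0.01, against 584, and 289 to 891 with a library left out. Total counts shifted the median of all genes by -0.10 on the log2 scale. Lower calls numbered 369, against 217 at the stricter threshold and 244 to 662 with a library left out. With the block the numbers were 800 and 500, and SLC12A7 and ANO9 were called higher (adjusted p = 0.0252 and 0.0456). The labels do not say that replicate numbers pair the libraries, so the numbers were not taken as pairs. Same-numbered libraries had deviations from their group means that correlated at 0.0721, 0.285 and 0.0413. Different-numbered libraries correlated at -0.338 to 0.208, and these values do not settle whether the libraries were paired. In the 9 further lists, 7 counts of calls were above 0 with all libraries, and 31 of their 105 recomputed values moved by over 1.5 times. Of 165 recomputed values of the 11 counts at 0, 7 were above 0. Leaving out a library leaves 5, so a lost call there does not show a smaller effect. Genes near 1 CPM, such as CFTR, ANO1 and SCNN1D, are limited by depth.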

Other observations

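Profiles over the 6 libraries were compared with those of the called members by the root mean square difference of centred log2 CPM. Candidates were 14170 other tested genes with a symbol and a mean log2 CPM of at least 0. The most similar genes are named here. For SCNN1A they were GRB7 (0.0783), an adaptor of receptor tyrosine kinases, IDUA (0.0804), a lysosomal enzyme that degrades glycosaminoglycans, and SLC26A1 (0.0872), an anion exchanger for sulfate. IDUA and SLC26A1 lie on opposite strands and share 534 exon bases, and IDUA had 458% of the counts of SLC26A1, so their profiles are not independent. For SCNN1B they were IFITM2 (0.0611), IFITM10 (0.0828) and LSR (0.117), a protein of tricellular junctions. IFITM10 shares 1062 exon bases with a gene without a symbol on the same strand that had 4786% of its counts, and a gene on the same strand had 43.0% of the counts of IFITM2. GRB7 was at a log2 fold change of 0.74 (edgeR adjusted p = 0.0545), IDUA at 0.80 (0.0410), SLC26A1 at 0.83 (0.0395), IFITM2 at 0.93 (0.0453), IFITM10 at 0.83 (0.0371) and LSR at 1.10 (0.00469). These genes were picked by likeness of profile over the same libraries, so fold changes near those of SCNN1A and SCNN1B follow from the choice.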
